A study of Mus musculus with 8 samples.

Results

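The miR-30 family was followed on both of its arms in mouse embryonic footpad skin. Every array row named for mmu-miR-30a-5p, mmu-miR-30a-3p, mmu-miR-30b-5p, mmu-miR-30b-3p, mmu-miR-30c-5p, mmu-miR-30d-5p, mmu-miR-30e-5p or mmu-miR-30e-3p was taken, which gave 8 mature miRNAs of the 1881 on the array and 19 of its 4415 probes. The 5 members from 5p arms had 11 probes and the 3 from 3p arms had 8, and together they filled 240 spots on each array. The series holds 8 Agilent miRNA arrays in 1 colour (Cy3), with 2 arrays a group. The 4 groups are WT (wild-type embryos) at E16.5, an embryonic stage in days of gestation, Dicer cKO (conditional knockout) at E16.5, WT at E17.5 and Dicer cKO at E17.5. All 4 groups share the strain background C57BL6. RNA came from dissected footpad skin, and each array was hybridised with a pool made from 3 to 5 embryos. A p-value therefore measures the spread between pools. The labels call the mutant Dicer cKO and name neither its alleles nor the Cre driver, so the cells that lost Dicer are not given in the sources used here.

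Dicer cuts the loop off a precursor hairpin and leaves a duplex of the 5p and the 3p arm. One strand of that duplex is usually kept in an Argonaute protein, where its seed (bases 2 to 8) pairs with target transcripts, while the strand left over is mostly broken down. In the miR-30 family the 5p arms share a seed and are broadly expressed, and they are known for repressing transcripts of the epithelial to mesenchymal transition such as Snai1. Comparing both arms of a hairpin asks whether the strands derived from it were present in the same proportion in knockout and WT skin.

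The RefSeq table used (GRCm38.p6) held mature sequences for 5 of the 8 members and none for those of miR-30b and miR-30d. The 5 are shown because they fall into 2 seed groups. Capitals mark the seed, and bases are written 5′ to 3′.
miR-30a-5p: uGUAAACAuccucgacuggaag
miR-30c-5p: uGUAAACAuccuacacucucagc
miR-30e-5p: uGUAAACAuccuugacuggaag
miR-30a-3p: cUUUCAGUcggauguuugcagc
miR-30e-3p: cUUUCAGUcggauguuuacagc
The seed GUAAACA belonged to 4 of 1679 mature miRNAs in that table (0.238%), namely these 3 5p arms and miR-384-5p. Members without a sequence there, miR-30b-5p and miR-30d-5p among them, are not in this count. The seed UUUCAGU belonged to 2 (0.119%), miR-30a-3p and miR-30e-3p. The 3 5p arms were identical over their first 12 bases. Counting from the 5′ end, miR-30a-5p and miR-30e-5p differ by C13U, and miR-30a-3p and miR-30e-3p differ by G18A.

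Both arms of the hairpin on which most of the comparison turns are in capitals here, in the Mir30e precursor of 92 bases.
Mir30e: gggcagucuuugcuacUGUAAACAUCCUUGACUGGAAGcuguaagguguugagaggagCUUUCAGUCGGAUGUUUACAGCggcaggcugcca
The array's own annotation (mm9, minus strand) placed the miR-30e-5p probe at chr4:120445233-120445248 and the miR-30e-3p probe at chr4:120445274-120445290. On the minus strand a 5p arm has the higher coordinates, so the order in the annotation conflicts with its strand. These positions are therefore no reliable location of either arm. In RefSeq, Mir30e and Mir30c-1 lie inside the span of Nfyc, which encodes a subunit of the transcription factor NF-Y. Mir30c-2 neighbours Mir30a on chromosome 1, and mature miR-30c-5p is encoded by both Mir30c hairpins. The 2 probes that stand for the miR-30e arms are complementary to bases 6 to 22 of the 5p arm and 5 to 22 of the 3p arm.
miR-30e-5p probe: cttccagtcaaggatgt
miR-30e-3p probe: gctgtaaacatccgactg
Each miR-30a and miR-30e probe had 1 mismatch to the same arm of the other hairpin. How far these miRNAs cross-hybridised was not tested.

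A miRNA was counted as detected on an array when over 50% of its probe's spots were well above background. All 5 members from 5p arms and miR-30e-3p were detected on 8 of 8 arrays, and miR-30a-3p and miR-30b-3p on 5 each. The remaining arms on the array (miR-30c-1-3p, miR-30c-2-3p, miR-30d-3p and miR-30f) were detected on 0 arrays. All 8 members passed the filter for testing, detection on both arrays of at least 1 group, as did 383 miRNAs in all. miR-30b-3p met it in the 2 knockout groups alone, being detected on 1 of 2 WT arrays at E16.5 and 0 of 2 at E17.5. miR-30a-3p met it in the 2 groups of E17.5 alone. Levels are given as log2 of the signal after each array was divided by the 75th percentile of 474 probes detected throughout, with values below −4.24 raised to that floor. Zero is thus the signal of that percentile, and levels of different miRNAs cannot be set against each other because their probes differ.

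Across the arrays, 278 to 382 miRNAs were detected, and the fewest were on WT replicate 2 and cKO replicate 2 at E16.5. Replicates correlated at Pearson's r of 0.997 to 0.999 across miRNAs. All 8 arrays lie on 1 slide, so a group's place on it and the group cannot be told apart. In the knockout, all 10 miRNAs listed as markers of skin epithelium were lower over both stages (median log2 difference −2.56), for example miR-205-5p by −3.12 and miR-203-3p by −3.19. They were lower under each of 6 ways of scaling the arrays, with medians from −2.97 to −2.56. Their summed level was 27.2 to 32.1 times the scaling signal on WT arrays and 2.82 to 4.29 on cKO arrays. With the main scaling, 6 of 7 listed for dermal mesenchyme were higher (median 0.36, summed level 45.7 to 52.6 in WT and 60.5 to 65.7 in cKO), as were 5 of 5 for skeletal muscle (0.32, 8.50 to 9.55 and 9.98 to 12.1) and 2 of 2 for endothelium (0.44, 1.56 to 1.91 and 2.01 to 2.54). Higher too were 3 of 6 tested for blood and immune cells (0.21, 3.14 to 5.05 and 4.63 to 5.08), 1 of 2 tested for nerve and glia (0.19, 0.30 to 0.36 and 0.38 to 0.42) and 1 of 4 for cartilage (0.16, 1.14 to 1.73 and 1.25 to 2.67). Among all 383 tested miRNAs, 45.7% were higher with this scaling (median 0.17), and the medians of the blood, nerve and cartilage lists were near that. Of the members of these 6 lists, 0 were called higher with all probes in the percentile, with no scaling or with control-probe scaling. Of all 384 miRNAs tested there, 5, 6 and 6 were called higher. With control-probe scaling 1 member was called lower in each list but that for endothelium, beside 179 of all 384 tested miRNAs. The medians there ran from −0.24 (cartilage) to −0.04 (dermal mesenchyme), and that of endothelium was 0.04. Under quantile scaling 1 nerve member was called lower. Detected on 0 arrays were miR-150-5p of the blood list and miR-9-5p and miR-124-3p of the nerve list. In such bulk samples, fewer cells of a type and less RNA per cell cannot be told apart. The part of these shifts in the results below was not tested.

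The 3p arm of miR-30e was higher in knockout than in WT skin at both stages, relative to its own 5p arm and on the main scale. How its level compares on other scales is given below. miR-30e-3p measured −3.41 and −3.51 in WT at E16.5, −2.99 and −3.13 in cKO at E16.5, −3.53 and −3.56 in WT at E17.5, and −3.06 and −2.92 in cKO at E17.5. Every knockout array was above every WT array. Among the members this was the only one whose knockout and WT arrays did not overlap, against 36.8% of all tested miRNAs. Over both stages the difference was 0.48 ± 0.051 (SE; 1.39-fold; limma adjusted p = 0.00108), with a 95% interval of 0.35 to 0.61. It was 0.40 ± 0.072 at E16.5 (adjusted p = 0.0103) and 0.56 ± 0.072 at E17.5 (adjusted p = 0.00266).

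For the 5p arm of the same hairpin no difference passed on the main scale. miR-30e-5p measured 0.35 and 0.23 in WT at E16.5, 0.26 and 0.19 in cKO at E16.5, 0.24 and 0.16 in WT at E17.5, and 0.26 and 0.30 in cKO at E17.5. Knockout and WT arrays overlapped. The difference over both stages was 0.011 ± 0.039 (SE; limma adjusted p = 0.832), with a 95% interval of −0.09 to 0.11.

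**Figure D1:**
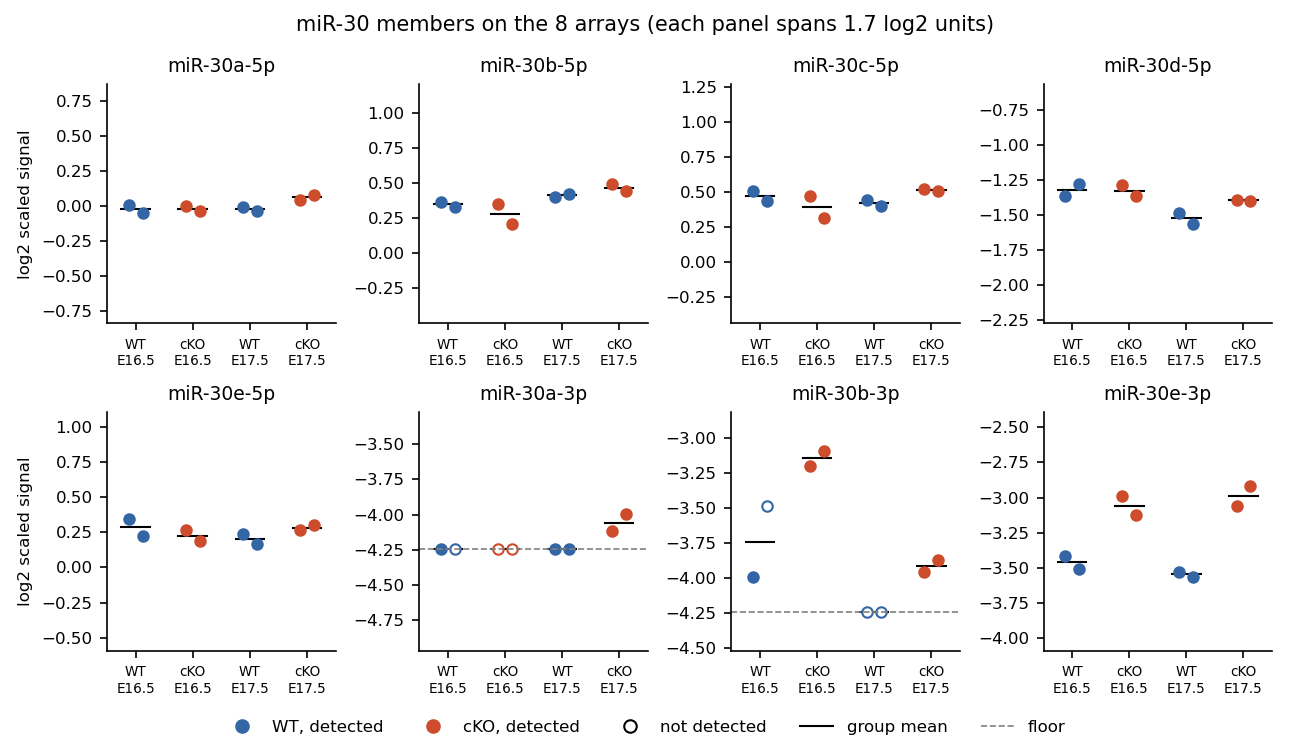
Level of each miR-30 member on every array, as log2 of the scaled signal, by group (WT and Dicer cKO at E16.5 and E17.5, 2 arrays each); filled points were detected, open points were not, bars are group means, the dashed line is the floor of −4.24, and each panel spans the same number of log2 units. miR-30e-3p is the member whose 4 cKO arrays all lie above its 4 WT arrays, and miR-30a-3p sits on the floor on 6 arrays.

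With the main scaling, 3 members were higher in knockout over both stages, 0 were lower and 5 did not pass (limma, adjusted p below 0.05). Over all 383 miRNAs, 45.7% were higher and 14.6% lower, so 3 of 8 is near the share for the array as a whole. The 3 were miR-30e-3p, miR-30b-3p, which entered the test through the knockout arrays, and miR-30a-3p, which lay at the floor on 6 arrays, so their number supports nothing on the 3p arms as a group. Of the 5 5p members, detected throughout, 0 passed, and their median difference was 0.011, beside 0.17 for all tested miRNAs. At E16.5, 2 were higher, miR-30b-3p and miR-30e-3p, where 35.5% of all tested miRNAs were, and 0 were lower, beside 15.1%. At E17.5, 2 were higher, miR-30e-3p and miR-30a-3p, beside 36% of all, and 0 were lower, beside 10.2%. The difference between the stages' knockout effects passed limma's threshold for 0 of 8 members and for 1.57% of all tested miRNAs. Unadjusted, 1 of 8 was below 0.05, miR-30a-3p (limma adjusted p = 0.107).

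Signals before scaling show where the 2 arms of miR-30e part. In scanner units, miR-30e-3p read 37.3 and 24.97 in WT and 36.2 and 33.0 in cKO at E16.5, and 43.5 and 44.1 in WT and 49.0 and 49.5 in cKO at E17.5. Negative-control spots had medians of 2.21 to 4.59 on the 8 arrays. On WT replicate 2 of E16.5, 66.7% of the miR-30e-3p spots were well above background, and the lowest detected signal was 22.3. The 24.97 there was thus near the limit of detection. miR-30e-5p read 506 and 333 in WT and 346 and 328 in cKO at E16.5, and 592 and 584 in WT and 490 and 463 in cKO at E17.5. Unscaled, the 5p signal at E17.5 was thus lower on both cKO arrays and the 3p signal was higher on both. At E16.5 WT replicate 1 was brighter than WT replicate 2 for both arms.

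The ratio of the arms within an array does not depend on a scaling factor. Relative to the WT mean of its stage, log2(3p/5p) of miR-30e was −0.013 and 0.013 in WT and 0.49 and 0.44 in cKO at E16.5. At E17.5 it was −0.018 and 0.018 in WT and 0.42 and 0.52 in cKO. On this scale the lowest knockout array lay 0.41 above the highest WT array. Over both stages the ratio was 1.38 times that of WT, a log2 difference of 0.47 ± 0.046 (SE; limma adjusted p = 6.83e-05 over 49 hairpins with both arms tested), with a 95% interval of 0.36 to 0.58. It was 0.46 ± 0.065 at E16.5 (adjusted p = 0.00112; 30.6% of hairpins passed there) and 0.47 ± 0.065 at E17.5 (adjusted p = 6.56e-04; 22.4% passed). The effects differed between stages by 0.0089 (adjusted p = 0.945, 95% interval −0.20 to 0.22), and 2.04% of hairpins passed that test. The exact two-sided permutation test of the 4 cKO against the 4 WT arrays gave p = 0.0286, the smallest its 70 arrangements allow, and p = 0.0857 after adjustment over the 3 hairpins. Kept within stage, the exact permutation p = 0.0556 was the smallest that 36 arrangements allow. Replicate number goes with the row of the slide, and within the rows the difference was 0.47 and 0.46. With normexp background correction, which adds an offset of 50 units and so shrinks dim signals, it was 0.31 (adjusted p = 0.00596).

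In miR-30b the 3p arm also rose against the 5p arm, with a wider spread and signals nearer to background. miR-30b-3p measured −4.00 and −3.49 in WT at E16.5 (the second array not detected), −3.20 and −3.09 in cKO at E16.5, the floor on both WT arrays at E17.5, where it was not detected, and −3.95 and −3.87 in cKO at E17.5. Within each stage every knockout array was above both WT arrays, while over the stages the groups overlapped. The difference was 0.46 ± 0.12 over both stages (SE; limma adjusted p = 0.0217) and 0.59 ± 0.17 at E16.5 (adjusted p = 0.0369). It entered the test through the knockout groups alone, a filter that favours higher values there, so these p-values are no independent support for the difference. At E17.5 a lower bound on the main scale was 2.06-fold higher in cKO. This bound sets the mean of the cKO arrays against the lowest signal counted as detected on the WT arrays. A signal not detected can exceed such a lowest signal, as on WT replicate 2 of E16.5 (25.4 beside 22.3), so the bound is no strict limit. Unscaled, miR-30b-3p at E17.5 read 26.3 and 25.6 in cKO and 11.1 and 9.67 in WT. The lowest detected signals on those WT arrays were 15.4 and 17.6. The fitted difference of 0.33 at E17.5, which did not pass (adjusted p = 0.174), is measured from the floor. Without the common floor it was 1.72 (adjusted p = 1.14e-04), and it passed under 7 of 22 alternatives.

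For miR-30b-5p no knockout difference passed on the main scale. It measured 0.37 and 0.33 in WT and 0.35 and 0.21 in cKO at E16.5, then 0.40 and 0.42 in WT and 0.49 and 0.44 in cKO at E17.5. The difference over both stages was −0.0074 ± 0.036 (SE; limma adjusted p = 0.894, 95% interval −0.10 to 0.09). log2(3p/5p) relative to the WT mean of the stage was −0.27 and 0.27 in WT and 0.54 and 0.79 in cKO at E16.5, and 0.012 and −0.012 in WT and 0.21 and 0.34 in cKO at E17.5. The WT array at 0.27 lies above the lower cKO value at E17.5, so the pooled groups overlap. The ratio differed by 0.47 ± 0.12 over both stages (adjusted p = 0.0163, 95% interval 0.20 to 0.74). It did so by 0.66 ± 0.17 at E16.5 (adjusted p = 0.0157). The hairpin was tested only because its 3p arm was detected in the knockout groups. The p-values of the ratio are therefore no independent support either. At E17.5 the 3p arm was at the floor on both WT arrays, so the 0.28 there (adjusted p = 0.302) depends on the floor, as does the value over both stages. Without the common floor they were 1.66 (adjusted p = 3.84e-04) and 1.16 (adjusted p = 2.91e-04). The exact two-sided permutation p was 0.2 over all arrays. Without cKO replicate 2 of E16.5 the adjusted p over both stages was 0.0639 (0.094 at E16.5), and without cKO replicate 2 of E17.5 it was 0.0672. With normexp the ratio differed by 0.20 (adjusted p = 0.152). For miR-30b-3p alone, leaving out any of the 4 cKO arrays or of the 2 WT arrays of E17.5 brought the adjusted p to between 0.056 and 0.0835 over both stages and to between 0.0741 and 0.127 at E16.5. With normexp its difference over both stages was 0.19 (adjusted p = 0.0551).

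miR-30a-3p has the seed of miR-30e-3p and could hardly be measured. Before the floor it read −4.27 and −4.56 in WT and −4.42 and −4.30 in cKO at E16.5, and −4.25 and −4.41 in WT and −4.11 and −4.00 in cKO at E17.5. Only the last pair exceeded the floor. The fitted difference of 0.09 ± 0.026 over both stages (SE; limma adjusted p = 0.0294) and of 0.19 ± 0.037 at E17.5 (adjusted p = 0.0124) passed with 6 arrays at a single value, which leaves those groups no measured spread. Without the common floor the both-stage difference was 0.16 (adjusted p = 0.187). It also missed the threshold without any 1 array of E16.5 or of WT at E17.5, with adjusted p from 0.075 to 0.0869. The call at E17.5 was lost without WT replicate 1 (0.0627) or 2 (0.0673) of that stage.

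miR-30a-5p was detected on every array, at 0.01 and −0.05 in WT and 0.00 and −0.04 in cKO at E16.5, and −0.01 and −0.04 in WT and 0.04 and 0.08 in cKO at E17.5. Both cKO arrays of E17.5 were above both WT arrays of that stage, and the groups overlapped at E16.5. The differences did not pass over both stages (0.04 ± 0.022, adjusted p = 0.169) or at E17.5 (0.08 ± 0.031, adjusted p = 0.0826; limma). For the hairpin, the ratio of 3p to 5p differed by 0.05 ± 0.045 (adjusted p = 0.448; exact permutation p = 0.257), a value and an SE set by the 3p arm being at the floor on 6 of 8 arrays.

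**Figure D2:**
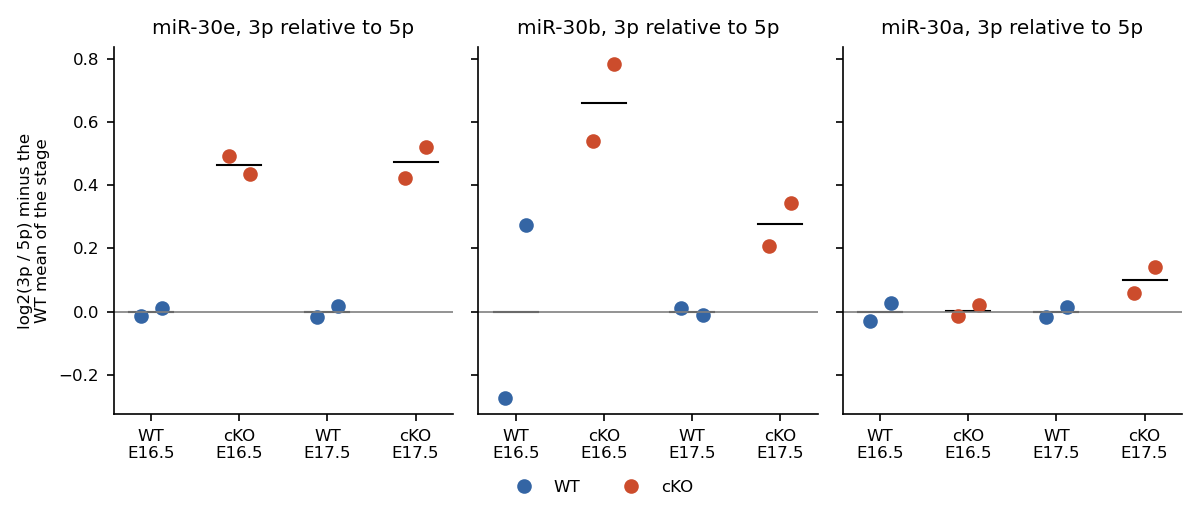
log2 ratio of the 3p to the 5p signal on each array, minus the mean of the 2 WT arrays of its stage, for the hairpins miR-30e, miR-30b and miR-30a; points are arrays and bars are group means. For miR-30e the 4 cKO arrays lie between 0.42 and 0.52 and the 4 WT arrays between −0.018 and 0.018, for miR-30b 1 WT array lies at 0.27, and for miR-30a all arrays lie below 0.15.

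Unequal arms were not rare on the array. Among 49 hairpins, 15 passed in either direction (30.6%), 12 with the 3p arm higher relative to the 5p arm (24.5%) and 3 with it lower, and the median difference was 0.036. The knockout and WT ratios did not overlap for 24.5%. miR-30b and miR-30e stood at rank 7 and 8 of 49 from the top. The rank of miR-30b is no independent support, since its 3p arm met the filter in the knockout groups alone. Both arms were detected on all 8 arrays for 24 hairpins, whose median was −0.011. Of those, 3 passed with the 3p arm higher and 1 with it lower, and miR-30e had rank 2, behind miR-17.

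**Figure D3:**
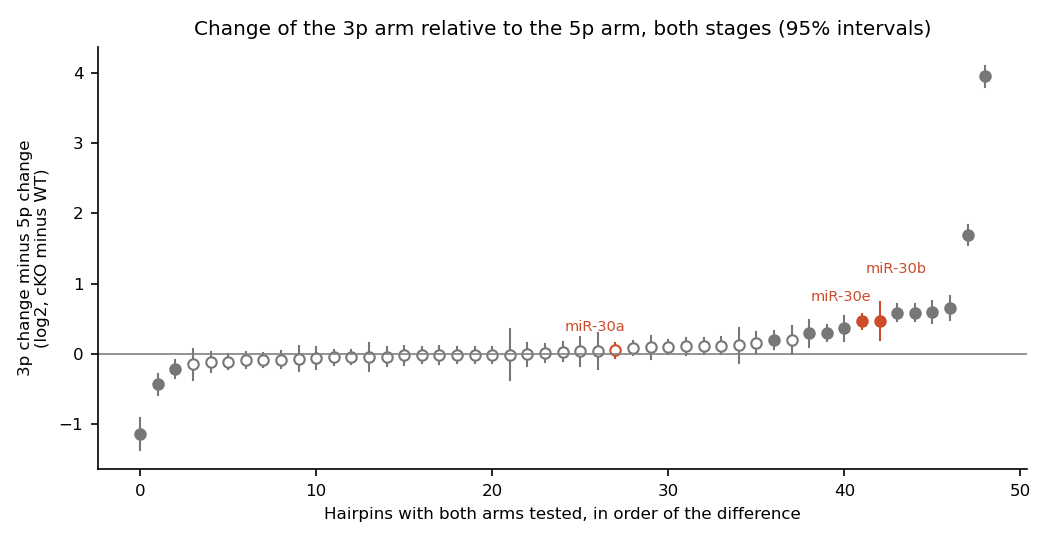
Change of the 3p arm minus change of the 5p arm, cKO minus WT over both stages on the log2 scale, for the 49 hairpins with both arms tested, in rising order; bars are 95% intervals, filled points have a limma adjusted p below 0.05, and the miR-30 hairpins are in red. miR-30b and miR-30e lie at 0.47 and miR-30a at 0.052, beside a median of 0.036.

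For the 2 members without a tested partner arm no knockout difference passed on the main scale. miR-30c-5p measured 0.51 and 0.43 in WT and 0.47 and 0.31 in cKO at E16.5, and 0.44 and 0.40 in WT and 0.52 and 0.50 in cKO at E17.5. miR-30d-5p measured −1.36 and −1.28 in WT and −1.29 and −1.36 in cKO at E16.5, and −1.49 and −1.56 in WT and −1.39 and −1.40 in cKO at E17.5. For miR-30c-5p the cKO arrays were lower on average at E16.5 and higher at E17.5, and for miR-30d-5p they were above WT at E17.5 alone. The differences over both stages were 0.0046 ± 0.042 (95% interval −0.10 to 0.11) and 0.06 ± 0.035 (−0.03 to 0.15), with limma adjusted p of 0.958 and 0.196. Across the 5 5p members the difference ran from −0.079 to −0.0027 at E16.5 and from 0.05 to 0.13 at E17.5.

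**Figure D4:**
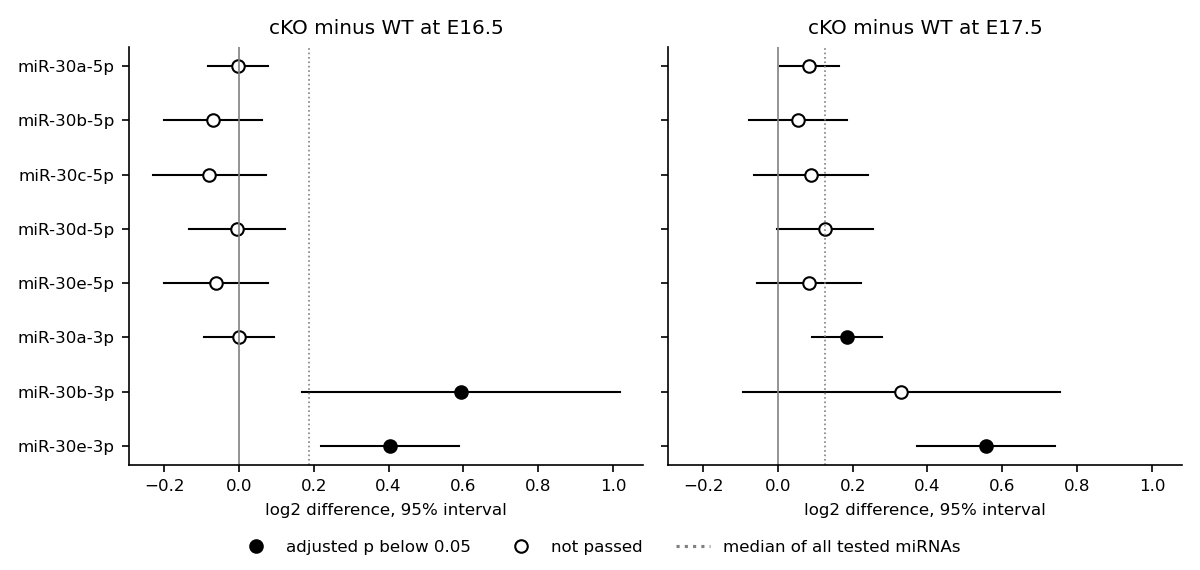
Difference between cKO and WT for each member in either stage on the log2 scale, with 95% intervals; filled points have a limma adjusted p below 0.05, and the dotted line is the median of all 383 tested miRNAs (0.19 in the left and 0.13 in the right panel). The 5p members lie between −0.08 and 0.13, and miR-30e-3p at 0.40 and 0.56.

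Which arm moved depends on how the arrays are scaled, while the gap between the arms of miR-30e remains. With all probes in the percentile, the median of all tested miRNAs became −0.07 in place of 0.17, with no scaling −0.09, and with scaling on the array's positive control probes −0.17. Of all calls, 75.8% were higher in cKO with the main scaling, 10.2% with all probes, 9.52% unscaled and 3.24% on control probes. On the control probes all 5 5p members were lower in cKO and passed, from −0.41 to −0.34, where 179 of all 384 tested miRNAs were lower. There miR-30e-3p was 0.08 higher and did not pass (limma adjusted p = 0.251). Under median or quantile scaling miR-30e-3p was 0.41 or 0.39 higher (adjusted p = 0.00293 and 0.00104), and the 5p members ran from −0.08 to 0.06, of which miR-30a-5p passed under quantile scaling (0.064, adjusted p = 0.0429). With all probes in the percentile it was 0.20 higher, and unscaled 0.17, and neither passed (adjusted p = 0.505 and 0.472). miR-30b-3p was higher by 0.25 to 0.48 under these 6 scalings, and did not pass on control probes (0.25, adjusted p = 0.0978). miR-30a-3p was lower by −0.15 to −0.06 under 3 of them.

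**Figure D5:**
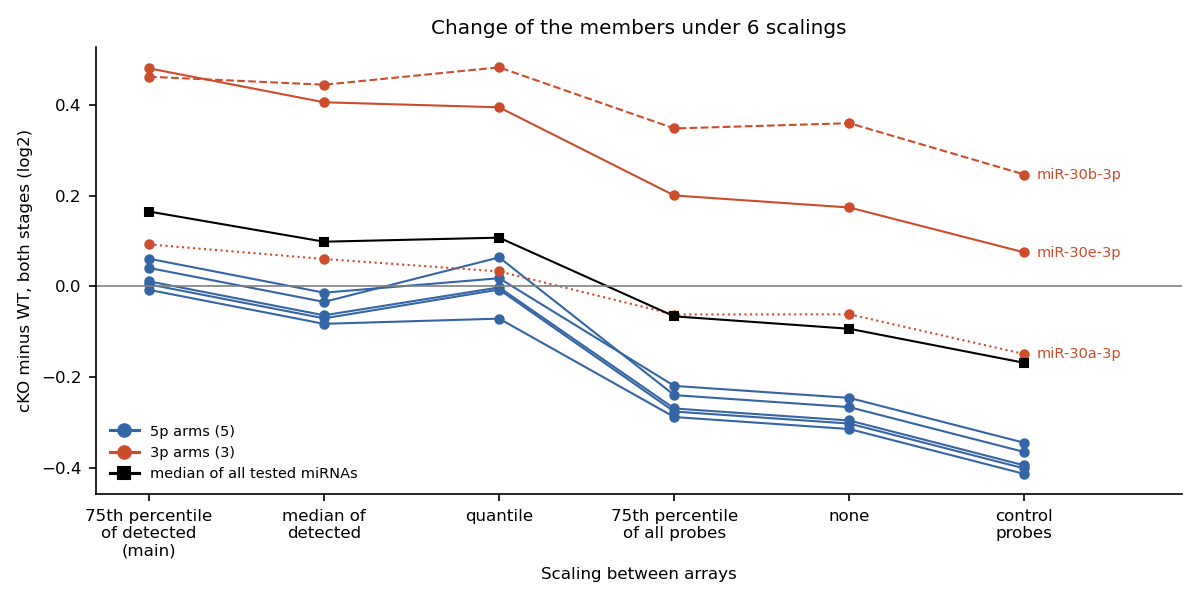
Difference between cKO and WT over both stages (log2) for the 5 5p members in blue and the 3 3p members in red under 6 ways of scaling the arrays to each other, with the median of all tested miRNAs in black. The median of all tested miRNAs goes from 0.17 at the left to −0.17 at the right, and miR-30e-3p lies above every 5p member under each scaling.

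With the main scaling, few members passed between the stages. In WT, 0 of 8 members passed between E16.5 and E17.5 (limma), against 14.9% of all tested miRNAs. At an unadjusted p below 0.05, 2 of 8 did, miR-30b-3p (−0.50, adjusted p = 0.0996) and miR-30d-5p (−0.20, adjusted p = 0.0576). The first is measured down to the floor and was −1.89 without the common floor (adjusted p = 4.34e-04). The sign of the second depends on the scaling, with 0.40 unscaled (adjusted p = 0.0808). In knockout skin, 2 were higher at E17.5 (15.1% of all) and 1 was lower (20.1% of all). These were miR-30b-5p by 0.19 (adjusted p = 0.043), miR-30a-3p by 0.19 (adjusted p = 0.0238), and miR-30b-3p by −0.76 (adjusted p = 0.0261). miR-30a-3p entered the test through the E17.5 groups, and its E16.5 arrays were all at the floor, so its call is no measured difference. The miR-30b-5p call was lost without any 1 array other than cKO replicate 1 of E16.5, with adjusted p from 0.0649 to 0.174, and under the 5 scalings other than the main one, where the difference ran from 0.10 (quantile) to 0.63 (unscaled), and with the median of probes (0.13). The miR-30b-3p call was lost without any 1 cKO array or WT array of E17.5, with adjusted p from 0.0623 to 0.115. That of miR-30a-3p was lost without any 1 cKO array of E16.5 or WT array of E17.5, with adjusted p from 0.058 to 0.0808. The 3p arm of miR-30b fell against its 5p arm in knockout by 0.95 ± 0.17 on the log2 scale (adjusted p = 0.00742, beside 6.12% of hairpins that passed in that direction), a call that was lost without cKO replicate 1 of E16.5 (0.0565) or of E17.5 (0.0816). For miR-30e the ratio of the arms differed between stages by 0.0027 in WT and by 0.012 in knockout.

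Several probes of different length bear on most members. The shorter probe of miR-30e-3p, detected on 6 arrays, differed by 0.48 at E16.5 and 0.38 at E17.5, next to 0.40 and 0.56 for the probe used. It lay at the floor on 4 arrays, those of WT, so its differences are measured from the floor. For miR-30b-3p, of 4 probes the 3 longest differed by 0.59 to 0.69 at E16.5, and the shortest was detected on 0 arrays. At E17.5 these 3 differed by 0.00 to 0.33, with the 0 where all arrays were at the floor. The 11 probes of the 5p members differed by −0.02 to 0.09 over both stages. Changes were thus of one sign where the 3p probes of miR-30e and miR-30b left the floor. Among them only the longer miR-30e-3p probe was above the floor on every array. By mean level, miR-30e-3p and miR-30d-5p fell in the middle of 3 level classes of tested miRNAs (127 to 128 each), the other 5p members in the brightest and the other 3p members in the dimmest. The median difference over both stages was 0.12 in the dimmest, 0.21 in the middle and 0.16 in the brightest class. The 0.48 of miR-30e-3p was above each of these medians. Its mean level of −3.26 lay at the lower edge of the middle class (−3.27 to −1.19). The classes sort probe signals, not amounts of different miRNAs.

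The 5p members had close profiles, and for each of them some miRNA outside the family was closer than any other 5p member. After each profile was centred on its mean over the 8 arrays, pairs of 5p members differed by a root mean square of 0.039 to 0.14 log2 units, and miR-30e-3p differed from them by 0.22 to 0.26. Outside the family, 254 miRNAs were detected on all arrays. Their median difference on this measure was 0.18 to 0.22 from a 5p member and 0.23 from miR-30e-3p. Nearest to miR-30e-3p were miR-154-3p (0.042), miR-199a-5p (0.051) and miR-199a-3p (0.065), which were higher in knockout by 0.44, 0.41 and 0.40. Both miR-199a arms are on the list for dermal mesenchyme. Nearest to miR-30e-5p were let-7e-5p (0.029), miR-340-5p (0.029) and miR-181c-5p (0.048), with differences between −0.02 and 0.04. let-7e-5p and miR-26a-5p were also among the 3 nearest to miR-30a-5p and to miR-30c-5p, joined by miR-23b-3p and miR-378d respectively. For miR-30b-5p the nearest were miR-99a-5p, let-7a-5p and let-7f-5p, and for miR-30d-5p miR-17-3p, miR-500-3p and miR-149-5p. The points share their arrays and scaling, so these distances are a description.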

How the data were processed

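Per the file headers, the scanner files were made by the authors with Agilent Feature Extraction 11.5.1.1 and hold background-subtracted spot intensity on a linear scale, not scaled between arrays. The deposited value table held the same intensity within 0.02 for 100% of spots above 0. Of 56430 spots per array, 0 were saturated, and spots marked as outliers (2.84% to 6.02%) were dropped. The mean over each probe's spots was divided by the array's 75th percentile of 474 probes detected on all arrays, raised to a floor (taken per array as percentile 5 of detected probes, then the median of these) and put on the log2 scale. Each miRNA took its probe of highest mean.

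A model of 4 group means over all 8 arrays was fitted to 383 miRNAs with limma 3.58.1 (eBayes with a trend) in R 4.3.3. Benjamini-Hochberg adjustment covered all of them within a contrast. The 3p minus 5p difference was fitted likewise, without a trend, for 49 hairpins. The fit was tested on simulated data. The number of arrays limits the precision. All members were named. So were the remaining miR-30 arms, the 3 miRNAs nearest in profile to each member detected throughout, and up to 2 miRNAs per marker list. The members and lists were chosen with earlier results of these data known. Alternatives were other scalings, background corrections, filters, floors and probes, the value table, the replicate block, no trend, single stages and leaving out each array.

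Same-numbered arrays did not deviate together throughout (r of deviations from −0.14 to 0.28), so replicate numbers were not taken as pairs.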

Additional observations from a re-analysis of the deposited data

How the results depend on the processing

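The difference between the miR-30e arms over both stages kept its direction and passed under the alternatives that can alter a ratio within an array. It was 0.31 with normexp, 0.40 with quantile scaling, 0.44 with the median of probes, 0.52 with negative controls subtracted and 0.44 to 0.49 without 1 array. The other scalings, the value table, the filter and the floors leave its size the same by construction. For miR-30b it was 0.20 with normexp and did not pass, 1.16 without the common floor, and 0.33 to 0.61 without 1 array. At E17.5 that of miR-30b passed under 5 of 21 alternatives, up to 1.66 without the common floor. For miR-30a it was 0.22 and passed with control-probe scaling.

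Members higher in knockout over both stages numbered 3 with the main setting. They numbered 1 with all probes in the percentile, no scaling, normexp or only miRNAs detected on all arrays, and 0 with control-probe scaling, where 6 were lower. Without 1 array they numbered 1 to 2. Over all 384 tested miRNAs, 5 were higher with all probes, 6 unscaled and 184 with normexp. Among the 260 detected on all arrays 142 were. On control probes 6 of 384 were higher and 179 lower. At E16.5 the 2 members became 1 with all probes, no scaling or the stricter filter, 0 with control-probe scaling (5 lower), and 1 to 2 without 1 array. Of all tested miRNAs, 4 of 384 were higher there with all probes, 4 of 384 unscaled and 128 of 260 with the stricter filter. On control probes 7 of 384 were higher and 101 lower. At E17.5 the 2 members became 1 with all probes, median scaling, no scaling, normexp or the stricter filter, 0 with control-probe scaling (6 lower), and 1 to 3 without 1 array. Of all tested miRNAs, 4 of 384 were higher there with all probes, 71 of 383 with median scaling and 4 of 384 unscaled. With normexp 136 of 384 were higher and with the stricter filter 118 of 260. On control probes 3 of 384 were higher and 195 lower.

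From E16.5 to E17.5 in WT, no scaling and control-probe scaling gave 3 higher and 1 lower in place of 0. Over all 384 tested miRNAs, 188 were higher and 4 lower unscaled, and 98 were higher and 9 lower on control probes. All probes, the stricter filter, the lower floor and no trend gave 1 lower, normexp and no common floor 2 lower, and leaving out 1 array 0 to 1 lower. Of all tested miRNAs, 4 of 384 were lower with all probes, 56 of 260 with the stricter filter and 42 of 383 with the lower floor. With no trend 50 of 383 were lower, with normexp 146 of 384 and without the common floor 62 of 383. In knockout the 2 higher became 0 with all probes, median or control-probe scaling, 1 with no scaling, normexp, the median of probes, the stricter filter or no common floor, and 0 to 1 without 1 array. Over all tested miRNAs, 2 of 384 were higher with all probes, 41 of 383 with median and 44 of 384 with control-probe scaling. Unscaled 23 of 384 were higher, with normexp 37 of 384 and with the median of probes 69 of 383. The stricter filter gave 51 of 260 and no common floor 52 of 383. The 1 member lower in knockout became 0 with the stricter filter, beside 64 of 260 tested miRNAs, and 0 to 1 without 1 array.

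Signs turned for miR-30a-3p over both stages (−0.062 with all probes, −0.061 with no scaling, −0.15 on control probes), at E17.5 (−0.059, −0.12 and −0.23) and between stages in knockout (−0.19 with normexp). On control probes they turned over both stages for miR-30a-5p (−0.36), 30c-5p (−0.40), 30d-5p (−0.34) and 30e-5p (−0.39), and at E17.5 for miR-30a-5p (−0.42), 30b-5p (−0.45), 30c-5p (−0.42), 30d-5p (−0.38) and 30e-5p (−0.42). Between stages in WT, miR-30a-5p turned to 0.60 unscaled and 0.23 on control probes, and passed. Signs of differences that passed in neither setting turned too. Unscaled, these were miR-30c-5p (0.56), 30d-5p (0.40), 30e-5p (0.52) and 30e-3p (0.52) in WT and 30d-5p in knockout (0.37) between stages. Over the alternatives other than leaving out an array, signs turned for 5 of 8 members between stages in WT, and 3 in knockout. For the knockout difference they turned for 6 members at E17.5, 2 at E16.5 and 6 with the stages together. For the difference between the stages' knockout effects they turned for all 8 members. The cause was not tested.

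With the replicate block, 3 members were higher over both stages, beside 163 of 383 tested miRNAs, and the miR-30e arms differed by 0.47 (limma adjusted p = 2.41e-04). The block added 1 call, the miR-30b arms between stages in WT (−0.56, adjusted p = 0.0462), and lost none of the members' calls. Over all tested miRNAs, 175 were higher and 56 lower with the main setting, 5 and 44 with all probes, 6 and 57 unscaled, and 6 and 179 on control probes. The unfiltered alternative could not be fitted. Negative-control subtraction and the setting without a common floor were chosen after seeing the data. Signal over background limits miR-30a-3p and miR-30b-3p most.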
